A study of Mus musculus with 5 samples.

Results

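Solute carriers are the membrane proteins that move amino acids, nucleosides, sugars, metals, ions and vitamins across the plasma membrane and the membranes of organelles. Their expressed genes were compared between JAK2-mutant and wild-type lymphoid progenitors of mouse bone marrow, and 154 genes were followed. A gene was a member if it is annotated as protein-coding, its symbol starts with Slc, a number and a letter, and its mean over the 5 libraries was at least 10 CPM (a library's counts scaled to a fixed total). The glucose carrier genes Slc2a1 and Slc2a3, the lactate carrier genes Slc16a1 and Slc16a3 and the iron exporter gene Slc40a1 are not members. Of 366 genes with such names, 154 met the level and 212 did not, in a table of 55487 genes. The members were chosen by this mean level, which is therefore given as a description, and the difference between the genotypes was not used. Just inside the limit lay Slc24a5 and Slc15a2, at means of 10.2 and 10.3 CPM, and just outside lay Slc7a7 and Slc9a3r2, at 9.62 and 8.99 CPM.

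The SF1 genotype carries SclCre, a Cre recombinase expressed under regulatory sequences of the blood stem cell gene Scl, and JAK2-V617F, the activated kinase of many myeloproliferative neoplasms. Its 3 libraries were set against 2 libraries of wild-type (WT) mice, for which the labels name no allele; libraries are called SF1-1 to SF1-3 and WT-1 and WT-2 after their replicate numbers. In both groups the marrow was taken 16 weeks after tamoxifen and common lymphoid progenitors (CLPs), the source of B, T and natural killer cells, were sorted as lineage-negative, CD127-positive and Flt3-positive cells. The sources used here do not give whether the WT mice carried SclCre, nor the age, sex and number of animals behind a library. The p-values therefore reflect only how far these libraries spread, which may be technical. The series asks how the mutant affects lymphoid differentiation.

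Solute carrier families are numbered by sequence relation, and most families keep to a class of substrates. Slc7 proteins exchange amino acids, several of them bound to the heavy chain Slc3a2, while Slc1a5 and the Slc38 family carry glutamine and other neutral amino acids. Slc39 (ZIP) proteins bring zinc and other divalent metals into the cytosol, and most Slc30 (ZnT) proteins move zinc out of it. Slc25 proteins exchange nucleotides, phosphate, citrate and other intermediates, for the most part across the inner mitochondrial membrane. Lymphoid progenitors take up such nutrients as they divide.

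The stretch upstream of the annotated start is shown for 3 members whose difference passed in every fit made, the zinc carrier Slc39a3, the citrate carrier Slc25a1 and the choline carrier Slc44a1. They were chosen after their values were seen and because each holds 1 of the motifs searched. Slc35c1, Slc35c2, Slc4a8, Slc25a22 and Slc38a10 also passed in every fit, and their windows held none of the motifs. The sequences are RefSeq's, of build GRCm38.p6, read 5′ to 3′ on the gene's strand, and capitals mark the motif. They lie at chr10:81037427-81037565 on the minus strand (Slc39a3), chr16:17928220-17928469 on the minus strand (Slc25a1) and chr4:53440163-53440412 on the plus strand (Slc44a1).
Slc39a3: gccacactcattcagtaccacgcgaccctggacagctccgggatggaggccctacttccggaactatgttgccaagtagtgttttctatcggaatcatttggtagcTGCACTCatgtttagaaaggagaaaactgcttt
Slc25a1: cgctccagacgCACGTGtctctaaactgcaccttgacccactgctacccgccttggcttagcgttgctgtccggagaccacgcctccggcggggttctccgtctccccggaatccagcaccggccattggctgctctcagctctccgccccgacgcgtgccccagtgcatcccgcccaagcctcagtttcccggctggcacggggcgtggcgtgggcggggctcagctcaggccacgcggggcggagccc
Slc44a1: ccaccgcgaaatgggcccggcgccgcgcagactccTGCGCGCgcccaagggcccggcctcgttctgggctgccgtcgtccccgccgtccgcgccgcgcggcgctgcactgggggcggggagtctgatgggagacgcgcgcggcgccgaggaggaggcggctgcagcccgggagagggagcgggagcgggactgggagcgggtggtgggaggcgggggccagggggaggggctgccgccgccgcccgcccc
In Slc39a3 the capitals match TGCACNC, and in Slc44a1 they match TGCGCNC; both are core forms of the metal response element, the site bound by the zinc sensor MTF1. In Slc25a1 they are CACGTG, the E-box read by MYC and related factors. Of the 154 members, 102 had a RefSeq entry that starts within 500 bases of the annotated start, and the 250 bases before each start were searched on both strands. Either metal response element core was found in 28.4% of these 102 members and in 30.6% of 8348 protein-coding genes tested. Among Slc39 members 2 of 5 held it, and among Slc30 members 2 of 5. Of called members, 2 of 10 lower and 3 of 9 higher ones held it. The E-box was found in 12.7% of the members and 8.8% of the protein-coding genes tested, and the amino acid response element core TGATGNAA in 2.94% and 1.92%, and in 0 of 11 amino acid carriers. A window was counted once however many matches it held, and matches on opposite strands may overlap; CACGTG reads the same on both. A match describes letters in these windows and shows no binding.

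Total counts ran from 8894288 to 20424296 per library, with WT-1 the deepest. Counts per gene cannot check the genotype, since they do not read the mutated base. Genes of the CLP list were present in both groups, with summed levels of 9757 to 10120 CPM in SF1 and 9214 to 9449 CPM in WT and none of 9 at 0; Dntt alone was at 4885 to 5374 CPM and 4985 to 5144 CPM. Of these 9 genes, 2 were higher in SF1 (Ly6d and Il7r) and 2 lower (Rag1 and Kit). Markers of other cells moved with the genotype too. Higher in SF1 were 14 of 15 neutrophil and monocyte markers (sums of 2452 to 6260 CPM against 1112 to 1431 CPM, highest in SF1-3), 6 of 8 dendritic markers (3411 to 3966 against 2573 to 2713 CPM) and 3 of 7 plasma cell markers (777 to 1004 against 363 to 399 CPM). Lower were 7 of 10 macrophage markers (8.85 to 15.5 against 33.2 to 39.3 CPM, Cd5l at 0 in SF1) and 8 of 11 tested erythroid markers (361 to 423 against 381 to 486 CPM, and 77.2 to 102 against 185 to 216 CPM without Tfrc; Hba-a2 at 0 in SF1). The mast cell, basophil and eosinophil list had 1 of 4 tested genes higher (19.04 to 45.8 against 15.3 to 20.4 CPM, Epx at 0 in WT), and the megakaryocyte list 1 of 3 (6.17 to 14.9 against 5.43 to 5.47 CPM, Gp1bb at 0 in both groups). Of the lineage antigens, 2 of 3 tested genes were higher and 1 was lower (82.5 to 92.3 against 136 to 179 CPM, Cd3e at 0 in SF1). The part of these cells in the differences of the solute carriers was not tested, and in bulk samples fewer cells of a type and less RNA per cell cannot be told apart.

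Among the 154 solute carriers, 10 were higher in SF1, 21 were lower and 123 did not pass, by the quasi-likelihood test of edgeR, with p-values adjusted over all genes tested (Benjamini-Hochberg, threshold 0.05). These shares lay near the background. The members called made up 20.1%, against 20.8% of 9258 protein-coding genes at the same mean level and 16.5% of all 14423 genes tested. Higher calls were 6.49% of members and 7.36% of genes of that level (6.77% of all genes tested), and lower calls 13.6% and 13.4% (9.74% of all genes tested). The log2 fold change, SF1 over WT, had a median of -0.05 over members, -0.02 over protein-coding genes of that level and 0.02 over all genes tested. It ran from -1.22 (Slc39a3) to 3.53 (Slc15a2), with 6 called members changed at least 2-fold and 16 at least 1.5-fold.

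All SF1 libraries lay above both WT libraries for 35 members and below both for 50, and the groups overlapped for 69. Of protein-coding genes at that level, 23.7% lay above and 29.7% below, 53.4% in all. Of all genes tested, 24.8% lay above and 24.2% below, 49% in all. Groups that did not overlap were thus common, and such remarks on single genes below only describe their values. Summed over the 154 members, the level was 11083, 11266 and 11130.1 CPM in the SF1 libraries, in replicate order, and 11930 and 11513 CPM in the WT libraries. Each SF1 sum lay below both WT sums. The sums over all genes tested had the same order, but the scaling factors of the libraries alone set those sums. The ratio of mean sums, SF1 over WT, was 0.952 for members. It was 0.965 for protein-coding genes of that level and 0.970 for all genes tested. The value for all genes tested reflects the scaling and is no measure of expression. All 154 members passed the filter on low counts, but 5 had a WT mean under 10 CPM, so that their SF1 libraries carried them over the limit. They are Slc15a2, Slc9a2, Slc26a6, Slc24a5 and Slc31a2, and 2 of the 10 higher calls are among them. No member was carried by the WT libraries alone, and the other 149 held 8 higher and 21 lower calls.

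**Figure D1:**
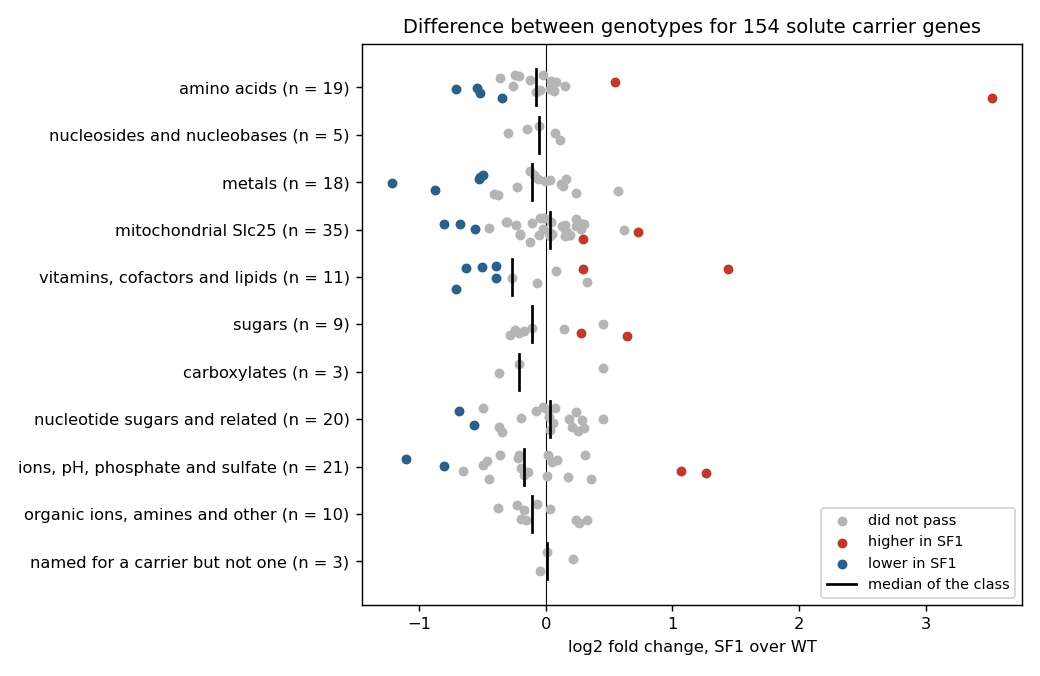
Log2 fold change (SF1 over WT, x axis) of each of the 154 genes (points) by substrate class, coloured by whether the gene passed the test, with the median of each class as a black bar. Class medians lie close to 0, between -0.27 and 0.04, and in classes with calls these lie on both sides of 0, except among metal and nucleotide sugar carriers (lower calls only) and sugar carriers (higher calls only).

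The calls rested on few libraries. Without WT-1, which leaves 1 WT library whose spread is assumed to be that of SF1, 5 members were higher and 9 lower. Without SF1-2 there were 3 and 14, and without SF1-3 there were 3 and 16. The calls of 12 members passed in all 14 other fits made, which left out a library or changed the scaling, filter, depth, test or model. These were the higher Slc9a2, Slc44a1 and Slc4a8 and the lower Slc35c1, Slc35c2, Slc4a2, Slc6a6, Slc25a22, Slc39a3, Slc39a14, Slc38a10 and Slc25a1.

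Of 18 metal carriers, 5 were lower in SF1, none was higher and 13 did not pass. Of the 5 lower genes, 4 were zinc importers of the Slc39 family. The Slc39 family had 4 of 8 members lower, a median log2 fold change of -0.44 and all SF1 libraries under both WT libraries for 6 of 8. Of protein-coding genes at the same mean level, 13.4% were called lower and 29.7% had all SF1 libraries under WT. The Slc30 family had none of 5 called in either direction, with 1 at an unadjusted p under 0.05, and a median of 0.03. Summed over Slc39 members the level was 475 to 511 CPM in SF1 and 653 to 688 CPM in WT, and over Slc30 members 450 to 491 CPM and 504 to 525 CPM. A difference between the families was not tested. Without WT-1, 2 of the 18 members were lower, and without SF1-2, 3 were.

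Slc39a3 encodes ZIP3, a zinc importer of the plasma membrane. It (ENSMUSG00000046822, GRCm38 chromosome 10, 81028538 to 81037426, minus strand) was at 13.5, 16.8 and 15.8 CPM in SF1-1, SF1-2 and SF1-3 and at 34.7 and 37.01 CPM in WT-1 and WT-2. The groups did not overlap, and the lowest WT library was well above the highest SF1 library. The means were 15.4 ± 1.69 CPM (SD, n = 3) and 35.8 ± 1.66 CPM (n = 2), 2.32-fold lower in SF1 (log2 fold change -1.22, SE 0.14, 95% interval -1.53 to -0.90, adjusted p = 0.00105). It is the member whose upstream stretch above holds TGCACNC.

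Slc39a14 encodes ZIP14, which carries iron and manganese besides zinc. It was at 25.95, 28.6 and 27.5 CPM in SF1 and 51.5 and 49.0 CPM in WT. Here too every SF1 library lay far under both WT libraries. The fold was 1.84 lower (log2 fold change -0.88, SE 0.11, adjusted p = 0.00142). Slc39a6, which encodes ZIP6, had the highest mean CPM of the ZIP genes, at 145, 149 and 117 CPM in SF1 and 204 and 189.7 CPM in WT. SF1-3 was the lowest and the groups did not overlap. It was 1.44-fold lower (log2 fold change -0.52, SE 0.11, adjusted p = 0.0141; 0.0906 without WT-1). Slc39a10, which encodes ZIP10, a zinc importer known for its part in B-cell survival, was at 76.6, 75.1 and 77.0 CPM in SF1 and 119 and 95.5 CPM in WT. The SF1 libraries were close together and the WT libraries apart. It was 1.41-fold lower (log2 fold change -0.50, SE 0.11, adjusted p = 0.0145; 0.0558 without SF1-2 and 0.143 without WT-1).

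The other 4 ZIP genes did not pass. Slc39a9 was at 89.6, 80.2 and 66.8 CPM in SF1 and 105.2 and 99.99 CPM in WT (log2 fold change -0.38, adjusted p = 0.0639). Slc39a11 had a log2 fold change of -0.13 (adjusted p = 0.325) and Slc39a13 one of -0.09 (adjusted p = 0.777). Slc39a8, which encodes ZIP8, was at 20.2, 18.2 and 22.1 CPM in SF1 and 22.9 and 17.2 CPM in WT, so that the groups overlapped. Its log2 fold change was -0.01 (95% interval -0.39 to 0.37, adjusted p = 0.981), and its sign turned under several other settings, so that 7 or 8 of the 8 fold changes were below 0, depending on the setting.

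In the Slc30 family, Slc30a5 encodes a ZnT protein of the secretory pathway and was the most abundant metal carrier by CPM. It was at 274, 264 and 241 CPM in SF1 and 320.4 and 287 CPM in WT. The groups did not overlap, but the gene did not pass (log2 fold change -0.23, 95% interval -0.43 to -0.03, adjusted p = 0.111). Slc30a9, Slc30a7, Slc30a6 and Slc30a4 had log2 fold changes of -0.06, 0.03, 0.12 and 0.13, with adjusted p between 0.532 and 0.877. Slc30a1, the plasma membrane zinc exporter, lay under the 10 CPM limit and is not a member. It was at 4.68, 5.61 and 6.99 CPM in SF1 and 2.26 and 1.14 CPM in WT and passed as higher (log2 fold change 1.67, adjusted p = 0.0144; 0.0512 without SF1-3 and 0.0564 without WT-2). Slc39a7, a zinc channel of the endoplasmic reticulum, also lay under the limit, and it passed as lower (2.34, 1.58 and 2.21 CPM against 5.43 and 5.47 CPM, log2 fold change -1.42, adjusted p = 0.0127; 0.0892 without WT-1). Both were chosen after their values were seen. Also under the limit, Slc39a4 (log2 fold change 0.11, adjusted p = 0.831) and Slc39a1 (-0.05, adjusted p = 0.943) overlapped between the groups and did not pass.

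Of the 5 metal carriers outside these families, 1 was lower and none higher. Slc41a1, a magnesium carrier gene that was named after its values were seen, was at 25.7, 23.9 and 26.6 CPM in SF1 and 37.7 and 35.4 CPM in WT. The groups did not overlap, and it passed as lower (log2 fold change -0.53, SE 0.12, adjusted p = 0.0159; 0.0599 without SF1-2 and 0.118 without WT-1). Slc11a2, which encodes the iron and divalent metal carrier DMT1, was at 19.6, 21.5 and 20.2 CPM in SF1 and 28.1 and 26.1 CPM in WT. It too had no overlap but missed the threshold (log2 fold change -0.41, 95% interval -0.70 to -0.12, adjusted p = 0.0597). The copper importer gene Slc31a1 (73.5, 76.9 and 71.1 against 65.3 and 59.6 CPM, log2 fold change 0.24, adjusted p = 0.129) and the heme carrier gene Slc48a1 (129, 130.1 and 123 against 114 and 114 CPM, 0.16, adjusted p = 0.201) had all SF1 libraries above WT and did not pass either. Of 13 tested genes of a metal handling list outside the carriers, none was higher and 1 was lower, Steap3, an endosomal ferrireductase. It was at 19.1, 20.1 and 16.5 CPM in SF1 and 30.2 and 25.4 CPM in WT (log2 fold change -0.59, adjusted p = 0.0278; 0.0546 without SF1-2, 0.0907 without SF1-3 and 0.22 without WT-1). The transferrin receptor gene Tfrc, which is also an erythroid marker, was at 279, 318 and 321 CPM in SF1 and 270 and 196 CPM in WT and did not pass (log2 fold change 0.39, adjusted p = 0.0775).

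**Figure D2:**
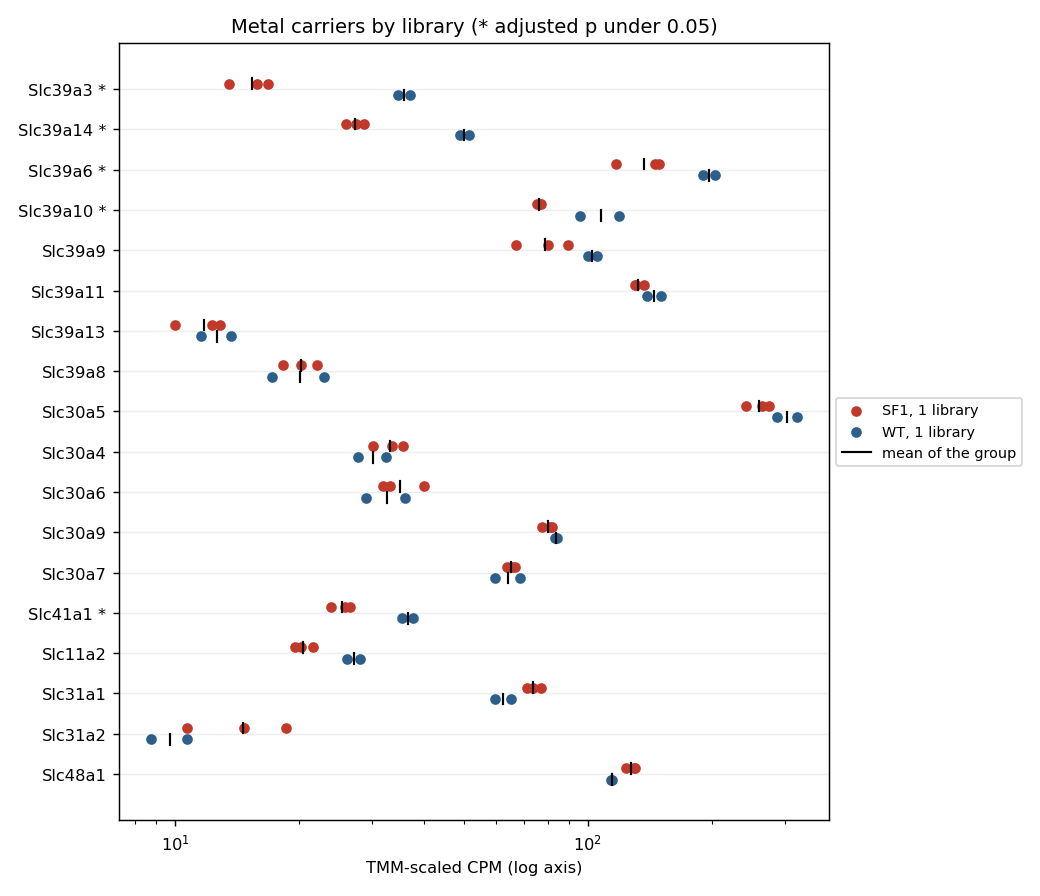
Level of each metal carrier gene (TMM-scaled CPM, log x axis) in each SF1 and WT library (points) with the mean of each group (black bar), Slc39 genes at the top, Slc30 genes next and other metals below. Slc39a3 and Slc39a14 show the widest gaps, with SF1 at 13.5 to 16.8 and 25.95 to 28.6 CPM against WT at 34.7 to 37.01 and 49.0 to 51.5 CPM.

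Amino acid and peptide carriers went both ways. Of 19 members, 2 were higher, 4 were lower and 13 did not pass, with a median log2 fold change of -0.08. Higher calls were 10.5% and lower calls 21.1%, against 7.36% and 13.4% of protein-coding genes at the same mean level. All SF1 libraries lay above WT for 3 genes and below for 7, where 23.7% and 29.7% of protein-coding genes at that level did. Their summed level was 2066 to 2135 CPM in SF1 and 2339 to 2401 CPM in WT. None was called higher without SF1-2, SF1-3 or WT-1, and 2 were lower without SF1-3 or without WT-1.

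The lower genes include the large neutral amino acid exchanger and the main glutamine exchanger of many dividing cells. Slc7a5, which encodes LAT1, was at 87.3, 110.2 and 85.3 CPM in SF1 and 147 and 127 CPM in WT. The groups did not overlap, and SF1-2 came nearest to WT. The means were 94.3 ± 13.8 CPM (SD, n = 3) and 137 ± 14.4 CPM (n = 2), 1.46-fold lower (log2 fold change -0.54, SE 0.12, adjusted p = 0.0196). It did not pass with SF1-3 left out (adjusted p = 0.0694), with WT-1 left out (0.147) and with an offset for GC content and length (0.0509). Its partner chain gene Slc3a2 was at 156, 168 and 157 CPM in SF1 and 159.9 and 167 CPM in WT, fully overlapping (log2 fold change -0.03, 95% interval -0.21 to 0.15, adjusted p = 0.858).

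Slc1a5, which encodes the glutamine exchanger ASCT2, was at 219.7, 189 and 197 CPM in SF1 and 275 and 237 CPM in WT. SF1-1 and WT-2 were close. It was 1.27-fold lower (log2 fold change -0.35, SE 0.10, adjusted p = 0.0418), and the adjusted p was 0.129, 0.12 and 0.28 without SF1-2, SF1-3 and WT-1. With the GC and length offset it was -0.20 (adjusted p = 0.152). The glutamine carriers Slc38a2 and Slc38a1 did not pass. Slc38a2 was the most abundant amino acid carrier by CPM, at 431, 426 and 421 CPM in SF1 and 472 and 456 CPM in WT (log2 fold change -0.12, 95% interval -0.28 to 0.03, adjusted p = 0.257). Slc38a1 was at 417, 435 and 402 CPM in SF1 and 390.2 and 409.9 CPM in WT (0.06, -0.10 to 0.23, adjusted p = 0.602). The SF1 libraries of Slc38a2 lay just under WT and those of Slc38a1 overlapped it. Per kilobase of exon, mean levels were 53.6 CPM for Slc1a5, 49.9 for Slc38a2, 45.8 for Slc3a2, 30.1 for Slc7a5 and 23.8 for Slc38a1. Exon length here and below joins all annotated exons of a gene, and may exceed that of the transcripts expressed. It was 17236 bases for Slc38a1 and 3708 for Slc7a5, so the order of these values depends on the annotation.

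Slc38a10, a further member of the glutamine carrier family, was the amino acid gene with the smallest p. It (GRCm38 chromosome 11, 120103960 to 120151346) was at 160.1, 157 and 171 CPM in SF1 and 278 and 255 CPM in WT. The gap between the groups was far wider than the spread within them. The means were 163 ± 7.64 CPM and 267 ± 16.2 CPM (SD, n = 3 and 2), 1.64-fold lower (log2 fold change -0.71, SE 0.08, adjusted p = 0.00105). Slc6a6, the taurine carrier gene, was at 78.4, 95.1 and 82.9 CPM in SF1 and 121 and 124 CPM in WT. The groups were apart, and it was 1.43-fold lower (log2 fold change -0.52, SE 0.10, adjusted p = 0.00937).

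The higher genes were a lysosomal amino acid sensor and a peptide carrier. Slc38a9 encodes the lysosomal carrier that reports arginine to mTORC1. It was at 72.7, 74.1 and 79.1 CPM in SF1 and 45.7 and 58.0 CPM in WT, with the groups apart and WT-1 the lowest. It was 1.46-fold higher (log2 fold change 0.55, SE 0.12, adjusted p = 0.0171), and did not pass without SF1-2, SF1-3 or WT-1 (adjusted p = 0.0546, 0.0636 and 0.137). Slc15a2, the carrier of di- and tripeptides, was at 9.25, 5.96 and 32.4 CPM in SF1 and 0.201 and 3.30 CPM in WT. Its SF1 libraries differed widely and were highest in replicate 3, which also had the highest sums of neutrophil and monocyte markers and of dendritic markers. SF1-1 and SF1-2 stood in the opposite order, with neutrophil and monocyte sums of 2452 and 3082 CPM. A link to these markers was not tested. The log2 fold change of Slc15a2 was 3.53 (SE 1.00, 95% interval 1.26 to 5.80, adjusted p = 0.0432). This was lost without SF1-1 (adjusted p = 0.0519), SF1-2 (0.052), SF1-3 (0.122) or WT-1 (0.209), and by DESeq2 (0.116) and limma voom (0.065).

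Among genes that sense or answer amino acid supply, 11 of 12 listed were tested, none was higher and 2 were lower, with a median log2 fold change of -0.03. Lower calls made up 18.2% of those tested, against 9.74% of all genes tested. Trib3, a pseudokinase gene induced by ATF4, was at 2.87, 1.58 and 1.47 CPM in SF1 and 9.46 and 6.61 CPM in WT (log2 fold change -2.05, adjusted p = 0.00491; 0.0581 without WT-1). Eif2ak4, which encodes the kinase GCN2 that senses uncharged transfer RNA, was at 45.6, 40.6 and 39.6 CPM in SF1 and 62.3 and 53.5 CPM in WT. It was lower too (log2 fold change -0.47, adjusted p = 0.0274), but not without SF1-2 (0.087), SF1-3 (0.0892) or WT-1 (0.21). The cystine carrier gene Slc7a11 was under the limit and had too few counts to be tested.

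**Figure D3:**
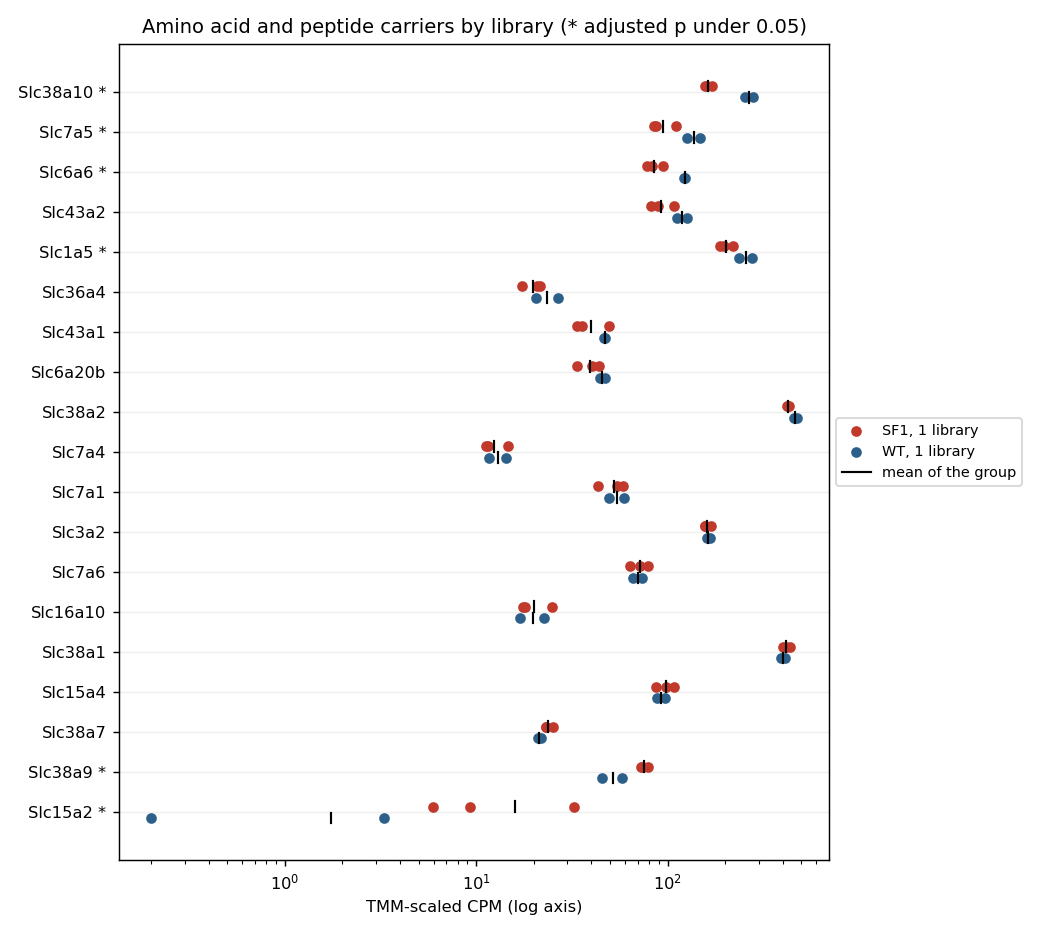
Level of each amino acid and peptide carrier gene (TMM-scaled CPM, log x axis) in each library (points), ordered by log2 fold change, with group means as black bars. Slc15a2 at the bottom spreads from 5.96 to 32.4 CPM within SF1, while Slc38a10 at the top keeps to 157 to 171 CPM.

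Mitochondrial carriers of the Slc25 family were mostly close to WT. Of 35 members, 2 were higher (5.71%), 3 were lower (8.57%) and 30 did not pass. Of protein-coding genes at the same mean level, 7.36% were higher and 13.4% lower. The family had a median log2 fold change of 0.04 and summed levels of 2980 to 3147 CPM in SF1 and 3059 to 3066 CPM in WT. All SF1 libraries lay above WT for 12 and below for 8, where 23.7% and 29.7% of protein-coding genes at that level did. The 12 metabolite carriers held all 3 lower calls and 1 of the higher ones (median -0.05). The 12 carriers of nucleotides and cofactors held the other higher call (median 0.08). Both higher calls were lost without SF1-2, SF1-3 or WT-1.

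Slc25a1 encodes the carrier that exports citrate from the matrix, the source of cytosolic acetyl-CoA. It (GRCm38 chromosome 16, 17925223 to 17928219) was at 265, 229 and 192 CPM in SF1 and 385 and 348 CPM in WT. SF1-1 was the highest of its group and still well under WT. The means were 229 ± 36.2 CPM and 367 ± 26.1 CPM (SD, n = 3 and 2), 1.60-fold lower (log2 fold change -0.68, SE 0.12, adjusted p = 0.00715). Per kilobase of exon it was second in level among the members, at 131 CPM. Slc25a22, a glutamate carrier gene, was at 50.6, 38.8 and 41.7 CPM in SF1 and 78.7 and 74.1 CPM in WT. The groups were apart, and it was 1.75-fold lower (log2 fold change -0.81, SE 0.13, adjusted p = 0.00392). Slc25a15, which carries ornithine into mitochondria, was at 33.4, 40.4 and 31.9 CPM in SF1 and 52.4 and 51.8 CPM in WT. It was 1.48-fold lower (log2 fold change -0.56, SE 0.13, adjusted p = 0.0175; 0.0623 without SF1-3 and 0.0915 without WT-1).

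The higher genes were an oxoglutarate carrier and an adenine nucleotide carrier. Slc25a11, the oxoglutarate and malate carrier of the malate-aspartate shuttle, was at 181, 197 and 192 CPM in SF1 and 154 and 156 CPM in WT. It was 1.23-fold higher with the groups apart (log2 fold change 0.29, SE 0.08, adjusted p = 0.0356). Without SF1-2, SF1-3, WT-1 and WT-2 its adjusted p was 0.103, 0.0993, 0.163 and 0.101. The aspartate-glutamate carriers of the same shuttle went opposite ways without passing: Slc25a12 was at 202, 215 and 226 against 175 and 189 CPM (log2 fold change 0.24, adjusted p = 0.0892), and Slc25a13 at 49.5, 48.2 and 42.3 against 58.0 and 58.0 CPM (-0.31, adjusted p = 0.0831). Slc25a24, a calcium-regulated carrier of ATP-magnesium and phosphate, was at 14.1, 16.5 and 22.1 CPM in SF1 and 10.8 and 10.4 CPM in WT. SF1-3 was the highest. It was 1.66-fold higher (log2 fold change 0.73, SE 0.21, adjusted p = 0.0464), and not without SF1-2, SF1-3, WT-1 or WT-2 (0.0943, 0.121, 0.173 and 0.135).

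The carriers that serve oxidative phosphorylation did not pass. Slc25a5, an ADP/ATP carrier gene and the highest member per kilobase (291 CPM), was at 461, 540.3 and 484 CPM in SF1 and 460.4 and 448 CPM in WT (log2 fold change 0.12, 95% interval -0.07 to 0.32, adjusted p = 0.356). Slc25a4, the other abundant ADP/ATP carrier gene, was at 193, 226 and 214 against 193 and 187 CPM (0.15, -0.05 to 0.35, adjusted p = 0.274). The phosphate carrier gene Slc25a3 was at 282, 337 and 306 against 284 and 324 CPM (0.02, -0.20 to 0.24, adjusted p = 0.905). The SF1 libraries of Slc25a5 and Slc25a4 lay above WT, SF1-1 by under 1 CPM in each, and those of Slc25a3 overlapped WT. The mitoferrin genes, which supply iron to mitochondria, lay on opposite sides: Slc25a37 was at 65.6, 59.6 and 64.4 against 49.3 and 55.6 CPM (0.27, adjusted p = 0.116), and Slc25a28 at 32.5, 32.4 and 32.7 against 41.1 and 39.6 CPM (-0.31, adjusted p = 0.0761). Neither passed, although the groups did not overlap in either.

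Of 15 genes for mitochondrial membrane transport outside the family, none was higher and 2 were lower. The lower share was 13.3%, against 13.4% of protein-coding genes with a mean of 10 CPM or more. Tomm40, the pore through which proteins enter mitochondria, was at 89.1, 77.5 and 77.5 CPM in SF1 and 148 and 161 CPM in WT (log2 fold change -0.92, adjusted p = 0.000681). Ucp2, which belongs to the same protein family under another name, had a log2 fold change of -0.23 (adjusted p = 0.0431), lost without any 1 of the 5 libraries, and of -0.03 with the GC and length offset.

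**Figure D4:**
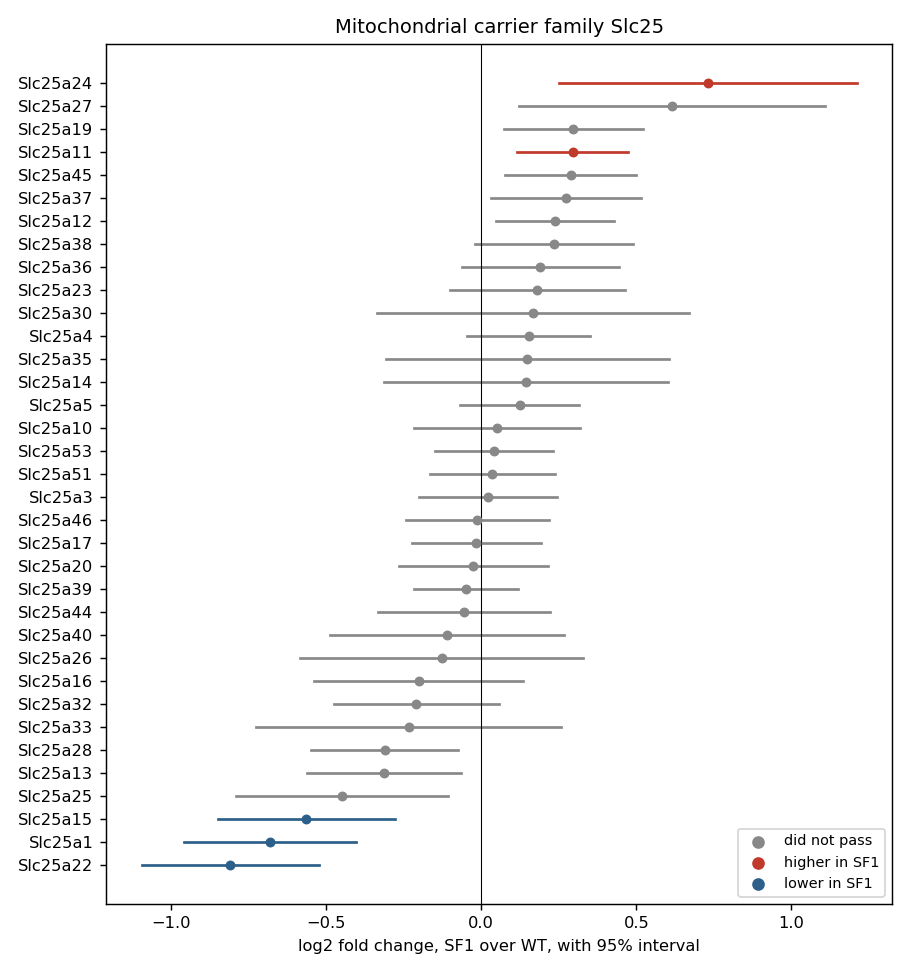
Log2 fold change (SF1 over WT, x axis) of each Slc25 gene with its 95% interval (bars), sorted and coloured by whether the gene passed the test. Slc25a22, Slc25a1 and Slc25a15 stand at the low end with values of -0.81, -0.68 and -0.56, and most other intervals include 0.

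Nucleoside and nucleobase carriers showed no call. None of 5 members passed as higher or lower by edgeR or by DESeq2, and 1 had an unadjusted p under 0.05. The median log2 fold change was -0.05, with sums of 619 to 672 CPM in SF1 and 662 to 694 CPM in WT. Slc29a1, which encodes ENT1, the equilibrative nucleoside carrier, was at 293, 249 and 266 CPM in SF1 and 298 and 299 CPM in WT (log2 fold change -0.15, 95% interval -0.34 to 0.05, adjusted p = 0.278). Its SF1 libraries lay under WT, replicate 1 by little. Slc17a9, the vesicular nucleotide carrier, was the gene with the unadjusted p under 0.05, at 32.5, 36.4 and 35.1 against 46.1 and 38.8 CPM (-0.30, -0.57 to -0.02, adjusted p = 0.129). The purine nucleobase carrier Slc43a3 (-0.05, -0.24 to 0.14), the lysosomal nucleoside carrier Slc29a3 (0.07, -0.15 to 0.30) and the concentrative carrier Slc28a2 (0.11, -0.19 to 0.42) overlapped between the groups. Slc29a2, which encodes ENT2, was under the limit and, named after its values were seen, passed as lower (5.53, 5.17 and 3.31 against 11.7 and 8.54 CPM, log2 fold change -1.13, adjusted p = 0.0231). It did not pass without SF1-2 (0.0614), SF1-3 (0.0561) or WT-1 (0.209).

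The listed enzymes that salvage nucleosides and nucleobases had 4 of 11 genes lower (36.4%), none higher and a median of -0.15. Of protein-coding genes with a mean of 10 CPM or more, 13.4% were lower. A difference from that share was not tested. The kinase gene Dck was at 249, 217 and 210.2 CPM in SF1 and 307 and 292 CPM in WT (log2 fold change -0.41, adjusted p = 0.0169; 0.0691 without SF1-2, 0.0628 without SF1-3 and 0.102 without WT-1). The uridine and cytidine kinase gene Uck2 was at 145, 139 and 147 CPM in SF1 and 183 and 176 CPM in WT (-0.33, adjusted p = 0.022; 0.0751, 0.0564 and 0.131 without the same libraries). In both genes every SF1 library lay under WT.

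Vitamin, cofactor and lipid carriers held 2 higher and 5 lower genes among 11 members, and 4 did not pass. These shares were 18.2% and 45.5%, against 7.36% and 13.4% of protein-coding genes at the same mean level. The median log2 fold change of the class was -0.27. Slc44a1, a choline carrier that feeds phosphatidylcholine synthesis, was at 48.1, 57.3 and 53.2 CPM in SF1 and 25.3 and 12.4 CPM in WT. The WT libraries differed from each other and both lay far under SF1. It (GRCm38 chromosome 4, 53440413 to 53622478) was 2.72-fold higher (log2 fold change 1.44, SE 0.24, adjusted p = 0.00543), the largest of the higher changes that passed in all 14 other fits. Its relative Slc44a2 was the most abundant member by CPM, at 514, 506 and 579 CPM in SF1 and 439 and 429 CPM in WT. The groups were apart, and it was 1.23-fold higher (log2 fold change 0.30, SE 0.08, adjusted p = 0.0408). That call was lost without any 1 library, with an adjusted p between 0.0534 (without SF1-1) and 0.137 (without WT-1).

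The lower genes of this class carry fatty acids and several vitamins. Slc27a2, a very-long-chain fatty acid carrier and acyl-CoA synthetase, was at 36.7, 42.6 and 41.5 CPM in SF1 and 65.6 and 59.0 CPM in WT. It was lower with the groups apart (log2 fold change -0.63, SE 0.11, adjusted p = 0.00681; 0.0584 without WT-1). It shares 11.2% of its exon bases with Gm26697. Slc19a1, the reduced folate carrier, was at 90.3, 89.4 and 75.9 CPM in SF1 and 114 and 109 CPM in WT, which kept the groups apart (log2 fold change -0.39, SE 0.10, adjusted p = 0.0293). It did not pass without SF1-2 (0.06), SF1-3 (0.0833), WT-1 (0.159) or WT-2 (0.0606). The remaining 3 are named after their values were seen: Slc5a6, the biotin and pantothenate carrier (log2 fold change -0.51, adjusted p = 0.0297; 0.172 without WT-1), Slc23a2, an ascorbate carrier (-0.39, adjusted p = 0.0372; 0.147), and Slc52a2, a riboflavin carrier (-0.71, adjusted p = 0.0499; 0.419). In all 3 the groups did not overlap. Each was also lost without each of 3 further libraries, with adjusted p between 0.0563 and 0.146.

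**Figure D5:**
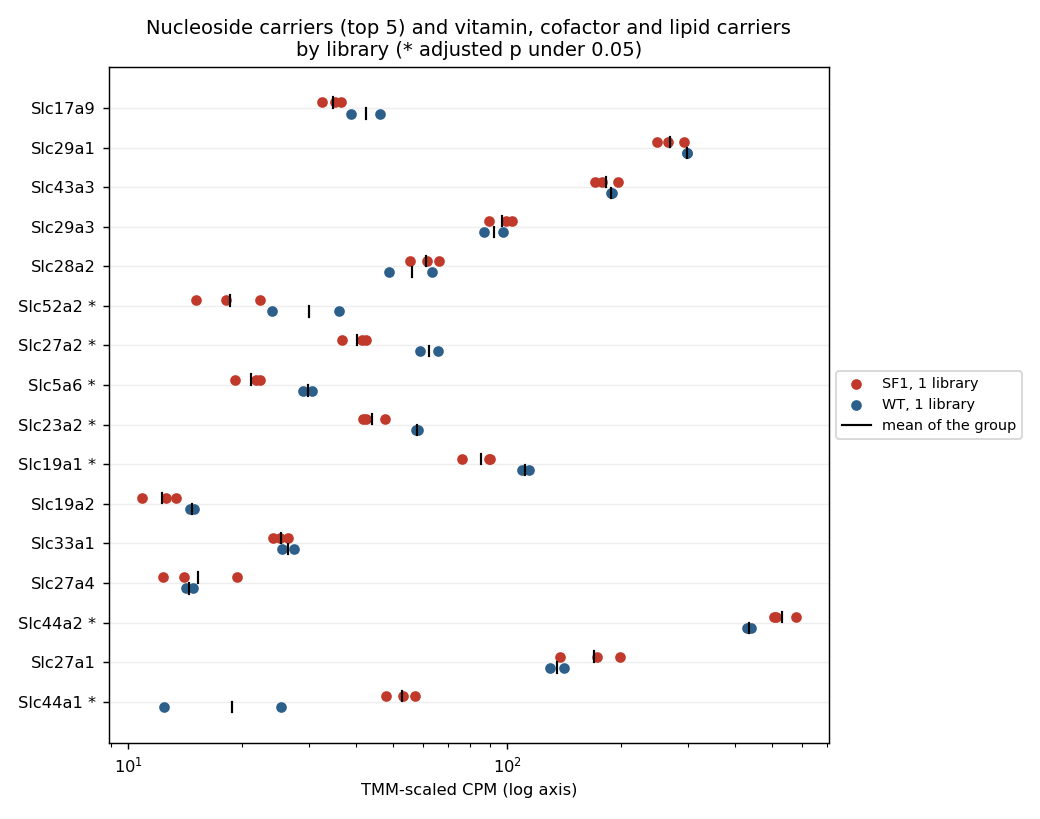
Level of each nucleoside carrier gene (upper rows, Slc17a9 to Slc28a2) and each vitamin, cofactor and lipid carrier gene (lower rows) in each library (points; TMM-scaled CPM, log x axis), with group means as black bars. Slc44a1 at the bottom has SF1 at 48.1 to 57.3 CPM and WT at 12.4 and 25.3 CPM, and no nucleoside carrier passed.

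Ion and pH carriers had 2 higher and 2 lower genes among 21 members (median -0.18). Each share was 9.52%, against 7.36% higher and 13.4% lower among protein-coding genes at the same mean level. Slc4a2, the anion exchanger AE2 gene, was at 24.997, 26.1 and 27.8 CPM in SF1 and 58.5 and 54.4 CPM in WT. The groups were far apart, and its adjusted p was the smallest of all members (log2 fold change -1.10, SE 0.11, adjusted p = 0.000577). It shares 13.7% of its exon bases with Fastk and Gm22333, and reads on those bases cannot be assigned by strand. Slc4a8, a sodium-driven chloride and bicarbonate exchanger, was at 21.7, 26.1 and 29.1 CPM in SF1 and 12.1 and 8.88 CPM in WT. It was higher (log2 fold change 1.26, SE 0.19, adjusted p = 0.0036). Slc9a2, a sodium-proton exchanger gene, was higher too, at 18.1, 21.98 and 20.5 against 10.7 and 8.31 CPM (1.07, SE 0.18, adjusted p = 0.00552). In both genes the groups did not overlap.

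Nucleotide sugar carriers, which supply the Golgi for glycosylation, had 2 lower genes among 20 members and none higher (median 0.03). The lower share was 10%, against 13.4% of protein-coding genes at the same mean level. Slc35c1, the GDP-fucose carrier, was at 58.5, 53.3 and 55.2 CPM in SF1 and 86.1 and 93.3 CPM in WT. It was lower with the groups apart (log2 fold change -0.69, SE 0.10, adjusted p = 0.00243). Its relative Slc35c2 was at 91.6, 93.0 and 95.9 against 125 and 152 CPM (-0.57, SE 0.10, adjusted p = 0.00633). Both passed in all 14 other fits.

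Sugar carriers had 2 higher genes among 9 members and none lower (median -0.11). The higher share was 22.2%, against 7.36% of protein-coding genes at the same mean level. Slc2a6, a glucose carrier family gene, was at 15.8, 15.9 and 19.6 CPM in SF1 and 12.1 and 9.68 CPM among WT (log2 fold change 0.64, SE 0.18, adjusted p = 0.0458). Slc50a1, the sugar efflux carrier SWEET1, was at 132, 123 and 130.4 CPM in SF1 and 104 and 108 CPM in WT (0.28, SE 0.08, adjusted p = 0.0475). Both had the groups apart, and both calls were lost without any 1 of the 5 libraries, with adjusted p between 0.0594 (without SF1-1) and 0.19 (without WT-2) for Slc2a6 and between 0.0723 (without SF1-2) and 0.232 (without WT-1) for Slc50a1. With the GC and length offset Slc50a1 was at 0.13 (adjusted p = 0.295).

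No gene was called among 3 carboxylate carriers, with 2 at an unadjusted p under 0.05, or among 10 carriers of organic ions, amines and other substrates, with 1. None was called among 3 genes that carry the name without being carriers (Slc7a6os, Slc9a3r1 and Slc4a1ap), where 0 had an unadjusted p under 0.05. Slc35e1 is an example of spread within WT, at 103 CPM in replicate 1 and 43.96 CPM in replicate 2, with SF1 between 72.1 and 82.8 CPM. Its log2 fold change of 0.06 therefore had a 95% interval of -0.56 to 0.67. Of the carriers left out, Slc16a1 (log2 fold change -0.87, adjusted p = 0.00221) and Slc2a3 (-0.56, adjusted p = 0.0246) were lower, and Slc2a1 (0.04), Slc16a3 (0.01) and Slc40a1 (-0.85, adjusted p = 0.26) did not pass. Of the 212 carriers under the limit, 75 had no count, 55 passed the count filter, and of those 2 were higher and 4 lower.

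The pumps that set the ion gradients on which many carriers run had 2 of 10 genes higher and 1 lower. These shares were 20% and 10%, against 7.36% and 13.4% of protein-coding genes with a mean of 10 CPM or more. Atp2a3, the calcium pump of the endoplasmic reticulum in blood cells, was at 298, 266 and 324 CPM in SF1 and 557 and 460 CPM in WT (log2 fold change -0.78, adjusted p = 0.00236). Atp6ap1, an accessory protein of the vacuolar proton pump, was at 294, 338 and 324 CPM in SF1 and 240 and 242 CPM in WT, higher by a log2 fold change of 0.41 (adjusted p = 0.0129; 0.052 without SF1-2 and 0.0736 without WT-1). In both genes the groups did not overlap.

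The called members differed in base composition as all called genes did. The median GC content of exons was 54.9% in the 21 lower members, 49.4% in the 10 higher ones and 50.1% in all 154. Over all genes called it was 53.4% in lower and 48.7% in higher genes, against 49.3% in all tested. With an offset for GC content and length, 9 members were higher and 18 lower. Exon bases were shared with another gene by 54 members, and 16 shared over 10% of them.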

How the data were processed

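RNA of 5 mouse libraries (3 SF1, 2 WT) was sequenced after SMART-Seq amplification (version 2 or 4, not given per library) and Nextera XT preparation, per the labels' protocols. The chemistry adds no molecular identifiers and keeps no strand, so PCR copies are counted and reads of overlapping genes cannot be told apart by strand. Whether reads on shared exon bases were counted or dropped is not stated. The authors deposited raw counts per gene with no normalization. FastQC, HISAT2 2.2.1, featureCounts 2.0.1 and build GRCm38 are named in the submitters' processing notes; the annotation and the handling of multiply mapped reads are not stated in these sources. Of 55487 identifiers, 55227 matched GENCODE M21, which gave symbols, exons and coordinates. Chi-square per degree of freedom within groups was 6.38 to 8.81, so no 2 libraries of a group differed by counting noise alone. This does not exclude separate libraries made from the same cells or animal.

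The counts were tested with edgeR 4.0.16 (R 4.3.3): TMM scaling, filterByExpr with a minimum count of 10, quasi-likelihood F test without covariates, Benjamini-Hochberg adjustment over 14423 genes, threshold 0.05. Levels are TMM-scaled CPM, and log2 fold changes are SF1 over WT. Alternatives used other scaling, filters, depth, DESeq2 1.42.0, limma 3.58.1 voom, a replicate block, a GC and length offset (a spline with 4 degrees of freedom), and each library left out.

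The members, substrate classes and pathway lists were chosen with earlier results of these data known. Named genes were up to 4 higher and 4 lower by smallest p, and the most abundant member, in each of 4 main classes, up to 2 and 2 in other classes, 12 further carriers, and up to 2 of each pathway list. Slc4a1ap was moved to the genes that are no carriers after the members were seen. Other names were chosen after their values were seen and are marked so. The values of 1 called member are not reported here.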

Additional observations from a re-analysis of the deposited data

How the results depend on the processing

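No member called higher or lower changed direction under any of the 14 alternatives; the sign of Slc39a8, which was near 0 and not called, did. Leaving out each library in turn gave 464 to 905 higher and 522 to 1265 lower genes over all genes tested (977 and 1405 with all libraries). It gave 3 to 7 higher and 9 to 21 lower solute carriers (10 and 21), 0 to 2 higher and 2 to 6 lower amino acid carriers (2 and 4), 2 to 6 lower metal carriers (5) and 0 to 2 higher Slc25 genes (2). Without a library fewer samples were tested. Deviations of same-numbered libraries from their group means correlated at 0.0356 and 0.0646 over genes. With 2 WT libraries the WT deviations mirror each other, so these values cannot decide whether the replicate numbers pair the libraries. With the replicate number as a block, 574 genes over all and 4 members were higher, with 1 higher and 2 lower amino acid carriers and 0 higher Slc25 genes. The GC and length offset, alone and with the block, left 2 lower amino acid carriers and 1 higher Slc25 gene. DESeq2 and limma voom each left 1 higher amino acid carrier. The cause was not tested. Slc39 genes called lower numbered 2 to 5 over all settings. A limit of 5 or 20 CPM gave 168 or 123 members. With no filter on low counts, 13 members were higher and 31 lower. Low counts limit genes near 10 CPM most. Slc15a2 also spread widely between libraries, with an SE of 1.00 against 0.19 for Slc24a5 at a similar mean.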
